A study of Mus musculus with 7 samples.

Results

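The accessibility of the promoters of 10 oxidative stress and antioxidant genes was examined by DNase-Seq in cultured mouse podocytes. The 10 genes were *Nox4*, *Cyba*, *Ncf1*, *Sod1*, *Sod2*, *Cat*, *Nqo1*, *Hmox1*, *Nfe2l2* and *Keap1*, chosen by name with earlier results of these data known, out of 21835 protein-coding genes that had a promoter peak in each of 3 lists of DNaseI hypersensitive peaks. A promoter was 500 nt on either side of any protein-coding transcription start site (TSS), and the 10 genes have 19 of the 54374 TSSs in the annotation. Their promoters overlapped 13 of 1036304 peaks in normal glucose (NG), 13 of 846027 in high glucose with a non-targeting mimic (HG+NT) and 17 of 900109 in high glucose with a miR-93 mimic (HG+miR-93, below also "with miR-93").

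The cells were a conditionally immortalised podocyte line of the mouse kidney glomerulus, differentiated and held in growth arrest before treatment. NG cells had 36 h of culture at 5 mM glucose, and no mimic is named for them. HG+NT cells had the same time at 25 mM glucose and were transfected with 50 nM of the control mimic, and HG+miR-93 cells received 50 nM of the miR-93 mimic at the same glucose. Each condition had 2 replicates, and 1 sample of genomic DNA cut with less DNaseI served as input. A difference between NG and HG+NT is therefore one of glucose and of transfection, which cannot be told apart, while HG+NT and HG+miR-93 differ in the mimic alone. The design asked which promoters change in high glucose and whether miR-93 turns the change back.

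Reactive oxygen species are made in podocytes by NADPH oxidases, which pass electrons from NADPH to oxygen, and by mitochondria. Superoxide dismutases turn superoxide into hydrogen peroxide, and catalase breaks down the peroxide. The transcription factor Nrf2, the product of *Nfe2l2*, is held in the cytoplasm and marked for degradation by Keap1. On oxidative stress it is released, enters the nucleus and binds antioxidant response elements at genes such as *Nqo1* and *Hmox1*. High glucose is a textbook source of oxidative stress in the glomerulus, with Nox4 as a main enzyme in kidney cells.

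Each condition has 1 list, in which its replicates appear to have been pooled. The conditions are therefore compared without a spread between replicates and without a test. For each gene the promoter peak with the highest fold was taken from each list. The fold is the fragment pileup at the summit over the local mean of the input, each increased by 1. It was ranked over the 21835 genes and is given as a percentile within the list. A rise or a fall below stands for a change of at least 25 percentile points. The number of fragments at each summit was solved from the fold and the p-value, and is called the pileup once scaled to the input's depth. Its 95% exact Poisson interval, given in parentheses, covers counting error only. The HG+NT list was 1.72 times and the HG+miR-93 list 2.30 times as deep as the NG list. No promoter peak of the 10 genes had a −log10 q above 0 in any list, so by q these are weak peaks. A −log10 q cut-off of 2 kept 73 of 1036304 NG peaks, 94 of 846027 in HG+NT and 1 of 900109 with miR-93. Nearly all peaks failed that cut-off, as those of the 10 promoters did. The share of other peaks with a −log10 q above 0 was not counted, so the 10 promoters were not ranked against others by q. In a bulk sample, fewer cells with an open promoter and less opening per cell cannot be told apart.

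From NG to HG+NT, 3 of the 10 promoters fell and 1 rose. The promoters of *Cat* (catalase), *Sod2* (the mitochondrial superoxide dismutase) and *Nqo1* (a quinone reductase) were above percentile 90 in NG and fell in HG+NT. The promoter of *Ncf1*, a cytosolic organiser of the phagocyte oxidase, rose. Over all genes, 20.3% fell and 20.0% rose by as much, so that 3 and 1 of 10 are near the background. The percentile was lower in HG+NT than in NG at 8 of the 10 promoters, against 49.8% of all genes. The median change of the 10 was -16.1 points, against 0.0916 over all genes. Ranked by pileup in place of fold, 6 of the 10 were lower and the median change was -5.05 points.

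From HG+NT to miR-93, *Cat* rose and *Cyba*, the membrane subunit that Nox enzymes need, fell. Over all genes, 16.1% rose and 16.0% fell by as much, so that 1 of 10 in each direction is close to the background. The percentile was higher with miR-93 than in HG+NT at 7 of the 10 promoters, against 50.2% of all genes, with a median change of 11.2 points against 0.0321. HG+NT was the lowest of the 3 lists at 5 of the 10 promoters, *Cat*, *Sod2*, *Nqo1*, *Nfe2l2* and *Keap1*, where it was the lowest at 31.0% of all genes. It was the highest at 0 of the 10, against 31.0% of all genes. Ranked by pileup it was the highest at 2, *Ncf1* and *Sod2*, and with summits within 500 nt of a TSS or with the fold over the median of the chromosome at 1, *Sod1*. Both steps share the HG+NT list, so a low value in that list alone gives a fall followed by a rise.

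**Figure D1:**
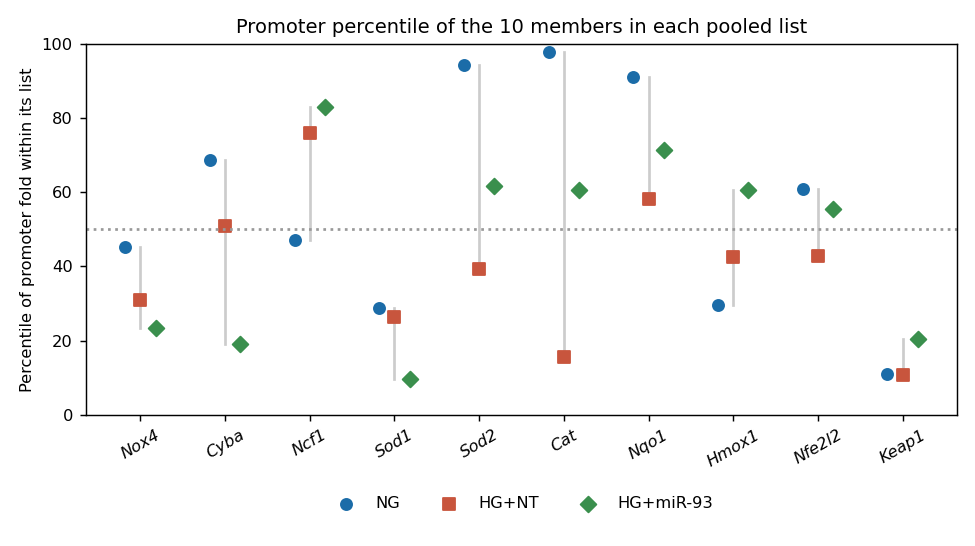
Percentile of the promoter fold (vertical axis, 0 to 100, among 21835 genes) of each of the 10 genes in NG (blue), HG+NT (red) and HG+miR-93 (green), 1 value per list. A grey line spans the range and a dotted line marks the middle. *Cat*, *Sod2* and *Nqo1* start above 90 in NG, and *Cat* drops to 15.6 in HG+NT and lies at 60.7 with miR-93.

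The counting intervals of the conditions overlapped at most of these promoters. The pileup intervals of NG and HG+NT overlapped at all 10 promoters, where they were apart at 2.91% of all genes. Those of HG+NT and HG+miR-93 were apart at 1, *Sod2*, against 2.34% of all genes. Those of NG and HG+miR-93 were apart at 2, *Sod1* and *Sod2*, against 3.81% of all genes. At *Sod2* this compared summits at different positions, as given below, and at *Sod1* the summits lay within 137 nt of the TSS in each list. In NG the 10 promoters rested on 8 to 36 fragments at the summit. The range was 10 to 42 fragments under HG+NT, and 18 to 62 with miR-93. The median ratio of the pileup in HG+NT to that in NG was 0.762 over the 10 genes, against 0.904 over all genes. The ratio of HG+miR-93 to HG+NT was 1.04, against 0.952.

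**Figure D2:**
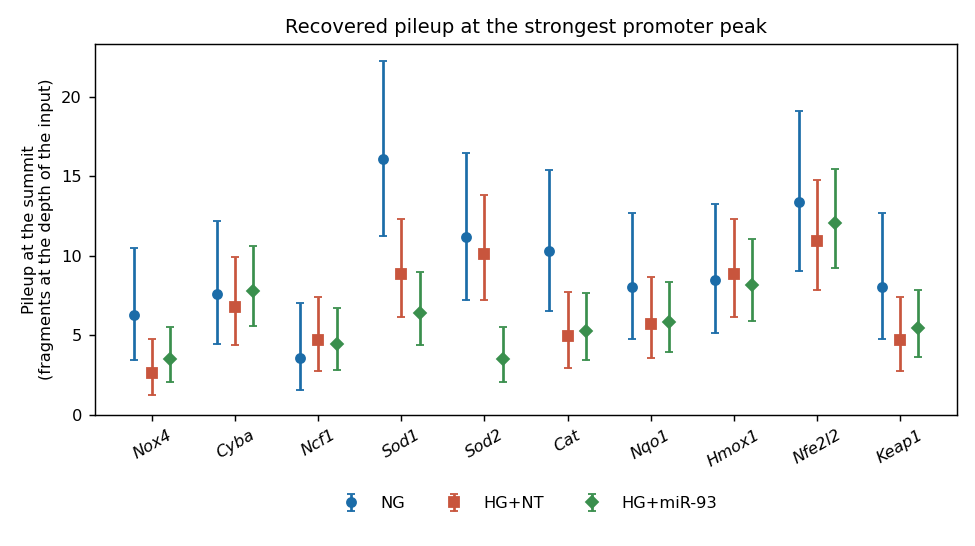
Pileup at the summit of the strongest promoter peak by fold (vertical axis, fragments scaled to the input) in NG (blue), HG+NT (red) and HG+miR-93 (green), with bars for 95% exact Poisson intervals, which cover counting error only. The *Sod1* interval of 11.3 to 22.3 in NG lies above that of 4.41 to 9.01 with miR-93, and the low HG+miR-93 value of *Sod2* is from a peak far upstream of its TSS.

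The first group is the enzymes that make superoxide and peroxide. *Nox4* (chromosome 7, 87246096 to 87398710, plus strand of GRCm38) encodes the oxidase that releases hydrogen peroxide without a need for the cytosolic subunits. Its promoter was at percentile 45.3 in NG, 30.9 in HG+NT and 23.5 with miR-93, with folds of 1.81, 1.48 and 1.32. By fold the changes were -14.5 and -7.39 points, both short of a fall. Ranked by pileup they were -47.6 and 14.8 points, the first of which is a fall. The strongest peak lay at a different place in each list. Its summit was in a coding exon in NG, 41 nt past a TSS, outside the gene in HG+NT, 1043 nt upstream, and in an intron with miR-93, 499 nt past a TSS. The pileup was 6.25 (3.42–10.5) in NG, 2.60 (1.25–4.78) in HG+NT and 3.50 (2.07–5.53) with miR-93. In both high glucose lists a weaker peak by fold lay at the TSS, 49 and 39 nt downstream, with pileups of 4.67 (2.77–7.39) and 4.66 (2.99–6.94) and a fold of 1.13 in each. With summits within 500 nt of a TSS alone, the first change was -28.6 points, also a fall, and the second 13.8. The direction from HG+NT to miR-93 thus depended on the peak taken and on the ranking.

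*Cyba* (chromosome 8, 122424776 to 122432930, minus strand) encodes p22phox, the membrane partner that stabilises Nox proteins. Its promoter was at percentile 68.6 in NG, 50.9 in HG+NT and 19.1 with miR-93, the lowest of the 3 in the list with miR-93. The folds were 2.15, 1.76 and 1.25, while the pileups were 7.59 (4.42–12.2), 6.75 (4.41–9.89) and 7.77 (5.55–10.6). The pileup was thus nearly level, and the local mean of the input at the summit was 3.0 in NG, 3.4 in HG+NT and 6.0 with miR-93. The summit was 265 nt upstream of a TSS in NG, and 830 and 684 nt downstream, in an intron, in the high glucose lists. Ranked by pileup, *Cyba* was higher with miR-93 than in HG+NT by 12.9 points, the reverse of its fall by fold.

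*Ncf1* (chromosome 5, 134220053 to 134229625, minus strand) encodes p47phox, which brings the cytosolic subunits of the phagocyte oxidase to the membrane. It was the only one of the 10 to rise from NG to HG+NT, from percentile 47.2 to 76.1, and was at 82.9 with miR-93. Ranked by pileup the change was 23.6 points, and 21.7 with the peak of highest pileup, just short of a rise. The folds were 1.83, 2.15 and 2.21, on pileups of 3.57 (1.54–7.04), 4.67 (2.77–7.39) and 4.47 (2.83–6.71). The 3 intervals overlapped, and no summit lay at the start of the gene. The peaks were 5240, 12018 and 5926 bp wide, with summits 2634 nt downstream of the TSS, 6423 nt upstream and 3002 nt downstream. The values of *Ncf1* are therefore those of broad peaks that reach its promoter, and it had no value when the summit had to lie within 500 nt of a TSS.

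The second group removes superoxide and hydrogen peroxide. *Cat* (chromosome 2, 103453849 to 103485160, minus strand) encodes catalase, the peroxisomal enzyme that splits hydrogen peroxide into water and oxygen. Its promoter had the largest fall of the 10 from NG to HG+NT and the largest rise from HG+NT to miR-93. It was at percentile 97.9 in NG, 15.6 in HG+NT and 60.7 with miR-93, so that it fell by 82.3 points and then rose by 45.1. The folds were 3.52, 1.24 and 1.84. The pileup was 10.3 (6.51–15.4) in NG, 4.93 (2.97–7.71) in HG+NT and 5.25 (3.46–7.63) with miR-93. The pileup in HG+NT was thus 0.480 of that in NG, with intervals that overlap, and HG+NT and HG+miR-93 were nearly level. The input's local mean at the summit was 2.2, 3.8 and 2.4, so the fold differed by more than the pileup did. The summit was in an intron, 295 and 254 nt past a TSS, in NG and with miR-93, and 70 nt upstream of the gene in HG+NT. In each of the other 6 ways of taking or ranking the peak that gave a value, *Cat* was lower in HG+NT than in NG, by 30.9 to 85.0 points, and higher with miR-93 than in HG+NT, by 5.95 to 49.6 points.

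The 250 bases upstream of the RefSeq start of *Cat*, *Sod2*, *Nqo1* and *Sod1* are printed because these promoters had the largest falls from NG to HG+NT or intervals that were apart. They are on GRCm38.p6, 5′ to 3′ in the direction of the gene, at chr2:103485154-103485403 (minus strand), chr17:13007589-13007838 (plus strand), chr8:107403206-107403455 (minus strand) and chr16:90220512-90220761 (plus strand). Capitals mark matches, on either strand, of the GC box (GGGCGG), the TATA box (TATAAA) and the core of the antioxidant response element (TGACNNNGC).
Cat: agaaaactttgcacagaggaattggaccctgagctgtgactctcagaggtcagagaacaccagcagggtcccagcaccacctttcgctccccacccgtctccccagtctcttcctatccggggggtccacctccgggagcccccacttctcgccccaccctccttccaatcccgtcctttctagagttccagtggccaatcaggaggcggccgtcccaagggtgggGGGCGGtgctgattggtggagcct
Sod2: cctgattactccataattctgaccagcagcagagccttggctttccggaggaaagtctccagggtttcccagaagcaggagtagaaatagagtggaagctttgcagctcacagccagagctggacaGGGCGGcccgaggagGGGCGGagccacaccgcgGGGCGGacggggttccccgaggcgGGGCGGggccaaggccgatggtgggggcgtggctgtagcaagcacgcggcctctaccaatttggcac
Nqo1: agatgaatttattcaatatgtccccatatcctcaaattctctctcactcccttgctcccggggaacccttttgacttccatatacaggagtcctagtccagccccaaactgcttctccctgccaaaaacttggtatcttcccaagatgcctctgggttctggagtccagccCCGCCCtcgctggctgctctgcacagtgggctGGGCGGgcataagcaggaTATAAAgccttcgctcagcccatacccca
Sod1: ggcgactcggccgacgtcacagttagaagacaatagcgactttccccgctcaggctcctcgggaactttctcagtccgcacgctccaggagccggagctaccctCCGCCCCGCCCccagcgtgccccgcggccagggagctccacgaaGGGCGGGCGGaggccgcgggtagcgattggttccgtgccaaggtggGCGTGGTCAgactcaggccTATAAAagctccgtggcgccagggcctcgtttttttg

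*Sod2* (chromosome 17, 13006846 to 13040063, plus strand) encodes the manganese superoxide dismutase of mitochondria. Its promoter was at percentile 94.3 in NG, 39.4 in HG+NT and 61.8 with miR-93, with folds of 3.04, 1.59 and 1.85. It fell by 54.9 points in the first step. The pileup hardly differed between these lists, at 11.2 (7.23–16.5) in NG and 10.1 (7.20–13.8) in HG+NT, with summits 179 and 85 nt downstream of the TSS. The local mean of the input was 3.0 at the first and 6.0 at the second. By pileup the percentile was higher in HG+NT than in NG by 1.36 points, so the fall of *Sod2* was one of fold and not of fragments. In HG+miR-93 the peak with the highest fold had its summit 8830 nt upstream of the gene, with a pileup of 3.50 (2.07–5.53) over the background mean of the input. The peak at the TSS, with its summit 165 nt downstream, had a fold of 1.75 and a pileup of 7.77 (5.55–10.6), which overlaps the intervals of NG and HG+NT. The 4 GC boxes printed above lie between positions -124 and -67, counted from the RefSeq start at 0.

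*Sod1* (chromosome 16, 90220754 to 90226329, plus strand) encodes the copper and zinc superoxide dismutase of the cytosol. It had the highest pileup of the 10 in NG and the lowest percentile of the 10 with miR-93. The pileup was 16.1 (11.3–22.3) in NG, 8.83 (6.11–12.3) in HG+NT and 6.41 (4.41–9.01) with miR-93, from 36, 34 and 33 fragments in lists of unequal depth. The NG interval lay above that of HG+miR-93, and both overlapped that of HG+NT. All 3 summits were upstream of the TSS, by 26, 137 and 105 nt, within the 250 bases printed above. In NG 1 peak of 3358 bp covered the promoter, and in each high glucose list 2 peaks did. By fold the percentiles were 28.9, 26.4 and 9.60, with folds of 1.55, 1.40 and 1.06. The input's local mean at these summits was 10, 6 and 6, against a median of 2 over all genes in each list. By pileup the percentiles were 98.9, 86.3 and 76.3.

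**Figure D3:**
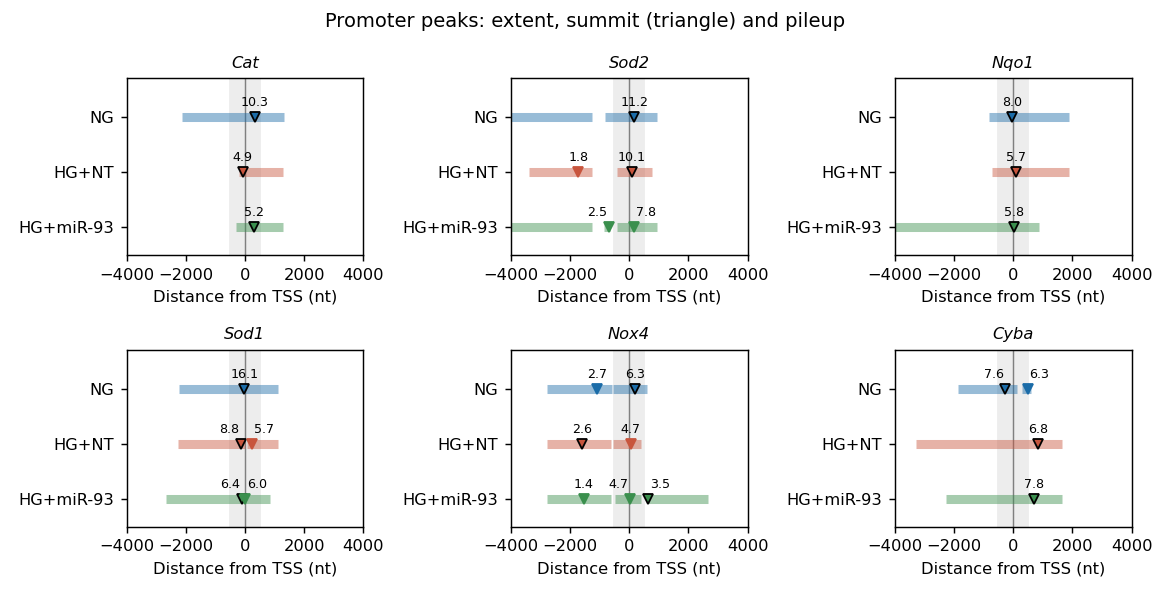
Extent (bars) and summits (triangles, with the pileup in fragments scaled to the input) of all peaks that overlap the promoters of 6 genes, by distance in nt from the TSS nearest to a summit, in the direction of the gene, with 500 nt on either side in grey. A black outline marks the peak with the highest fold, summits beyond a panel are not drawn, and the *Sod2* peak with the highest fold with miR-93, 8830 nt upstream, is among those.

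The third group is the classical targets of Nrf2. *Nqo1* (chromosome 8, 107388225 to 107403206, minus strand) encodes a reductase that detoxifies quinones without forming radicals. Its promoter was at percentile 91.1 in NG, 58.2 in HG+NT and 71.4 with miR-93, with folds of 2.82, 1.86 and 2.01. It fell by 32.9 points in the first step, and the later change was 13.2. The pileup was 8.04 (4.76–12.7) in NG, 5.71 (3.58–8.65) in HG+NT and 5.83 (3.93–8.32) with miR-93, so that the intervals overlapped. All of the summits were close to the TSS, 37 nt upstream in NG and 107 and 40 nt downstream in the other lists. The input's mean there was similar, at 2.2, 2.6 and 2.4. The direction of both changes was the same under each other setting tried, but ranked by pileup the first change was -6.68 points, and -7.99 with the peak of highest pileup, both short of a fall. The NG summit lay in the bases printed above. The TATA box printed above starts at position -29, and *Nqo1* was 1 of 2 of these genes with one, the other being *Sod1*.

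*Hmox1* (chromosome 8, 75093621 to 75100589, plus strand) encodes the inducible haem oxygenase, which opens haem into biliverdin, iron and carbon monoxide. By fold it ranked at percentile 29.5 in NG, at 42.4 in HG+NT and at 60.5 with miR-93, where it was highest. The folds were 1.58, 1.64 and 1.83. The pileup was nearly the same in each list, at 8.49 (5.11–13.3), 8.83 (6.11–12.3) and 8.16 (5.88–11.03). The summits lay 96, 35 and 203 nt downstream of the TSS, in peaks of 5626, 18993 and 10367 bp. *Hmox1* and *Nqo1*, both induced through Nrf2, thus had opposite directions from NG to HG+NT by fold and the same direction from HG+NT to miR-93. *Cyba*, *Nqo1* and *Hmox1* are on chromosome 8, whose promoters had a median change of 11.7 points from NG to HG+NT. Relative to it, the changes were -29.4, -44.6 and 1.29 points, and with the fold taken over the median promoter fold of the chromosome, *Hmox1* had a change of -4.77 points, the other direction.

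The last group is the regulators. *Nfe2l2* (chromosome 2, 75675513 to 75704641, minus strand), which encodes Nrf2, had the highest pileup of the 10 in both high glucose lists. The pileup was 13.4 (9.04–19.1) in NG, 10.9 (7.86–14.7) in HG+NT and 12.05 (9.24–15.4) with miR-93, at percentiles of 95.9, 92.5 and 97.9 by pileup. The promoter was thus among the higher ones in each list and its 3 intervals overlapped widely. By fold the percentiles were 60.8, 42.8 and 55.4, with changes of -18.1 and 12.7 points, and the input's mean was 6.0, 6.2 and 6.4. The summit was 1010 nt downstream of the TSS, in an intron, in NG, and 84 and 78 nt downstream in the others. The noncoding gene *E030042O20Rik* starts in the same window on the other strand, and DNaseI cuts cannot be assigned to either gene.

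*Keap1* (chromosome 9, 21229730 to 21239361, minus strand), the adaptor that ties Nrf2 to a ubiquitin ligase, was low by fold in each list. It ranked at percentile 11.1 in NG, at 10.7 in HG+NT and at 20.5 with miR-93, with folds of 1.29, 1.13 and 1.29. The pileups were 8.04 (4.76–12.7), 4.67 (2.77–7.39) and 5.44 (3.62–7.86), over an input mean of 6, 4 and 4. The summits were 2, 90 and 13 nt downstream of one of its 5 TSSs. *Keap1* was counted among the promoters with HG+NT lowest on a change of -0.373 points from NG to HG+NT, and with promoters of 1000 nt on either side it was not.

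The order of the 10 promoters differed between the lists. In NG the highest by fold were *Cat*, *Sod2* and *Nqo1* and the lowest was *Keap1*. In HG+NT the highest was *Ncf1*, followed by *Nqo1* and *Cyba*, with *Keap1* and *Cat* the lowest. In HG+miR-93 the highest was again *Ncf1*, followed by *Nqo1*, with *Sod1* and *Cyba* the lowest. Between the lists the median percentile of the 10 was 54.0 in NG, 40.9 in HG+NT and 58.0 with miR-93 by fold. By pileup it was 72.7, 69.2 and 67.0, above the middle of all genes in each list.

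The genes that fell had started high. Of 2183 genes at percentile 90 or above in NG, 81.8% were lower in HG+NT, with a median change of -12.7 points and quartiles of -36.7 and -1.89. Among these genes, 1.79% fell by as much as *Cat*, 13.2% by as much as *Sod2* and 28.3% by as much as *Nqo1*. By fold, the fall of *Nqo1* was thus a common one for a promoter that ranked as high in NG, and that of *Cat* was not. Genes that started lower than *Cat* within this range had less room to fall as far. Ranked by pileup the change of *Cat* was -30.9 points, and its pileup intervals in NG and HG+NT overlapped. HG+NT was the lowest of the 3 lists at 41.2% of these genes, against 31.0% of all genes.

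**Figure D4:**
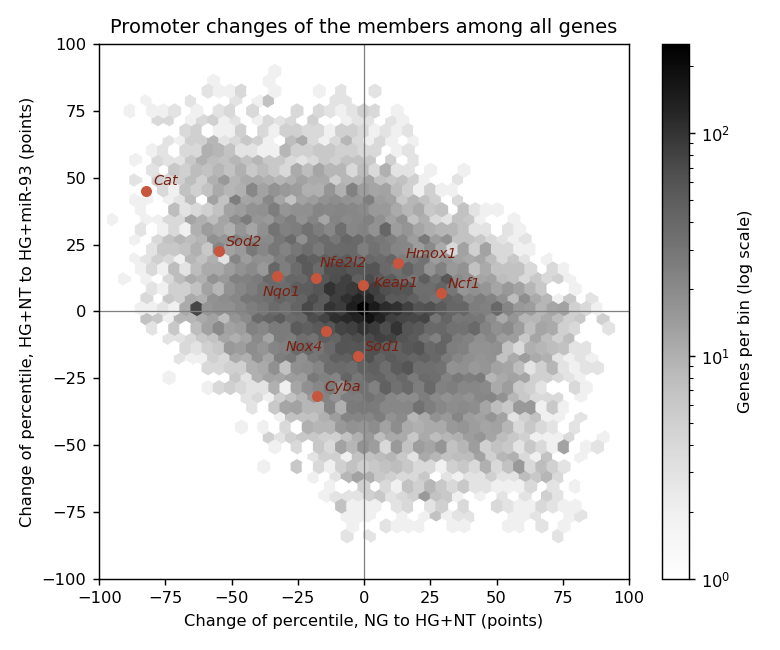
Change of the promoter percentile from NG to HG+NT (horizontal axis, points) against that from HG+NT to miR-93 (vertical axis, points) for 21835 genes, in hexagonal bins shaded by the number of genes on a log scale, with the 10 genes in red. Both axes share the HG+NT list, and *Cat*, at -82.3 and 45.1, lies at the edge of the cloud.

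The promoter sequences had common features that the choice of genes did not use. A RefSeq promoter of 300 bases, 250 before and 50 after the start, was matched for 9 of the 10 genes, and the table held 20143 promoters of protein-coding genes in all (GRCm38.p6). The GC box was in 9 of the 9, against 47.7% of all promoters. The antioxidant response element core was in 2 of the 9, *Nfe2l2* at position -240 and *Sod1* at -56, against 13.1% of all, and *Nqo1* had no match in this window. The TATA box was in 2 of the 9, against 12.1% of all. The AP-1 site (TGANTCA), whose letters can overlap those of the response element core, was in 0 of the 9, against 7.0% of all. Both strands were searched, neighbouring GC boxes can share letters, as at *Sod1*, and a match is a run of letters and not a bound site.

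The GC content of the 9 promoters ran from 53.3% in *Keap1* to 68.7% in *Nfe2l2*, at percentiles of 38.1 to 84.5 among all promoters. Across 16495 genes, Spearman's rho of GC content was 0.354, 0.372 and 0.337 with the percentile by fold in the NG, HG+NT and miR-93 lists. With the pileup it was 0.524, 0.570 and 0.572, and with the input's mean 0.408, 0.385 and 0.371. Genes are not independent, and the 3 lists share the input. The median change from NG to HG+NT was -0.124 points in the GC-richer promoters and 0.111 in the others.

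The wider pathway was described with 57 other genes in 5 lists, all of which had a promoter peak in each condition. From NG to HG+NT 12 of the 57 rose and 13 fell, and from HG+NT to miR-93 9 rose and 10 fell, near the shares of all genes given above. Their median changes were -1.09 and -0.550 points, and HG+NT was the lowest list at 16 and the highest at 17. The lower HG+NT values of the 10 genes were hence not seen over the wider pathway, though the difference was not tested. Of the 5 lists, the 10 genes of haem, iron and quinone handling had the lowest median change from NG to HG+NT, -19.5 points, with 5 that fell and 2 that rose, against 20.3% and 20.0% of all genes. In this list the pileup intervals of NG and HG+NT were apart at 2 genes, *Hmox2* and *Gsta4*, against 2.91% of all genes. They were picked after their values were seen. *Gsta4*, a glutathione transferase, had pileups of 10.7 (6.87–15.9) in NG and 2.86 (1.43–5.11) in HG+NT. The input's mean at its summits was 4.4 in NG and at the background of 1.43 in HG+NT. The positions of the summits were not compared, so the peaks may lie at different places. The 9 genes of Nrf2 regulation, among them the small Maf partners and *Bach1*, were high in each list, with median percentiles of 92.1, 93.8 and 86.0, and 1 of them fell and 0 rose from NG to HG+NT. Of the 12 genes of the NADPH oxidases 4 rose and 2 fell, of the 13 that remove superoxide and peroxide 3 rose and 4 fell, and of the 13 of thioredoxin and glutathione 3 rose and 1 fell, to be read against the same shares of all genes.

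Among these 57 genes the largest falls from NG to HG+NT were at *Cybc1*, which helps the phagocyte oxidase to mature, and *Hmox2*, the constitutive haem oxygenase. *Cybc1* went from percentile 82.3 to 14.7 and was at 0.740 with miR-93, with pileups of 9.83 (6.16–14.9), 6.23 (3.99–9.27) and 5.83 (3.93–8.32). *Hmox2* went from 69.3 to 2.71 and back to 46.9, with pileups of 8.49 (5.11–13.3), 1.56 (0.572–3.39) and 5.25 (3.46–7.63). The HG+NT interval of *Hmox2* lay below those of NG and HG+miR-93. The input's mean at its summits was 3.4, 2.0 and 2.8, and whether the summits lay at the same place was not examined. The largest rises were at *Prdx2*, a peroxiredoxin, from 19.5 to 89.0 and to 28.5 with miR-93, and at *Gpx2*, a glutathione peroxidase, from 13.0 to 74.5 and to 28.6. The pileup of *Prdx2* was 6.25 (3.42–10.5), 7.01 (4.62–10.2) and 7.38 (5.23–10.1), and did not follow its percentile.

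From HG+NT to miR-93 the largest falls of the wider pathway were at *Glrx*, a glutaredoxin, from 86.0 to 5.06, and at *Srxn1*, the sulfiredoxin that repairs peroxiredoxins, from 76.8 to 5.89. The pileup of *Glrx* was 8.57 (5.90–12.03) in HG+NT and 3.69 (2.22–5.77) with miR-93, intervals that were apart. The input's mean at these summits was 3.0 and 4.0, and their positions were not compared. The pileup of *Srxn1* was 9.35 (6.55–12.9) and 6.80 (4.74–9.46). The largest rises were at *Noxo1*, the organiser of the Nox1 oxidase, from 21.2 to 93.5, and at *Rac2*, a small GTPase of the phagocyte oxidase, from 13.1 to 78.6. Their pileups hardly differed, at 5.71 and 5.64 for *Noxo1* and 5.97 and 5.44 for *Rac2*. Nearest to *Nox4* by the distance over the 3 percentiles were *Gss*, the glutathione synthetase, at 16.6 points and *G6pdx*, which supplies NADPH, at 17.6. Nearest to *Hmox1* were *Duox1* at 15.3 points and *Noxa1* at 19.2, both of the oxidase family.

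**Figure D5:**
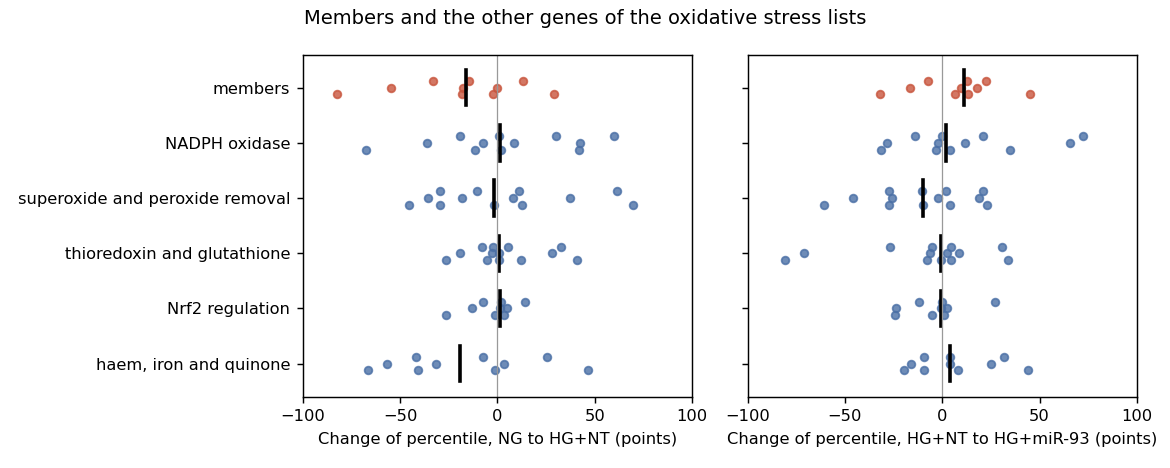
Change of the promoter percentile (horizontal axes, points) from NG to HG+NT and from HG+NT to miR-93 for the 10 genes (red) and the genes of 5 wider lists (blue), 1 point per gene, with a black bar at each median. The medians of the 10 genes are -16.1 and 11.2, and the list of haem, iron and quinone handling has -19.5 in the first step.

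Cell type markers were read in the same way. Of the podocyte markers, *Actn4*, an actin crosslinker, was at percentile 87.7, 93.3 and 90.8 in the NG, HG+NT and miR-93 lists, and *Synpo*, an actin-associated protein of foot processes, at 91.1, 96.3 and 71.4. *Podxl*, which encodes the sialomucin podocalyxin, was at 90.4, 13.6 and 75.9. The pileup of *Podxl* was nearly level, at 5.81 (3.09–9.93), 4.93 (2.97–7.71) and 5.25 (3.46–7.63), over an input mean of 1.43, 4.0 and 2.0. *Nphs1*, which encodes the slit diaphragm protein nephrin, was at 9.99, 55.0 and 64.1. Its pileups of 4.02 (1.84–7.63), 4.41 (2.57–7.07) and 4.66 (2.99–6.94) overlapped in their intervals. By fold, the markers of the labelled cell type were thus not high throughout. The 5 leukocyte markers had a median of 30.5, 61.8 and 71.2, with *Ptprc*, the common leukocyte antigen, at 23.6, 2.26 and 5.65 and pileups over the list of 2.68 to 4.91, 2.34 to 5.19 and 1.36 to 5.05. *Cybb*, the phagocyte oxidase subunit that acts with p47phox, is one of them and was at 8.69, 68.3 and 72.2, so that it was higher in both high glucose lists, as *Ncf1* was. The 4 endothelial markers had a median of 50.9, 65.1 and 76.0 and pileups of 3.57 to 4.47, 3.64 to 5.97 and 3.89 to 5.64. All of these marker promoters had a peak in each list. The cells were a cultured podocyte line, and whether other cells had a part in the values of *Ncf1* was not tested.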

How the data were processed

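DNase-Seq libraries of 3 podocyte cultures (2 replicates of each, 1 genomic DNA input) were analysed from 3 peak lists, 1 per condition. The authors demultiplexed reads with CASAVA 1.8.2, trimmed them with TrimGalore! and aligned them with Bowtie (mm10). After a duplicate filter, MACS2 was run with the input as control, with parameter values not given in the sources used here. The list names speak of joint sets, so replicates appear to have been pooled. Each deposited peak has a fold (the ratio of pileup to input), a −log10 p-value, a −log10 q-value, a score and a summit offset in bases. The study's own counting of reads around each TSS and its test were not repeated, and single replicates and RNA were not analysed here.

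The fragments at a summit and the local input mean were derived from each fold and p by a Poisson model, with the input mean on steps of 0.02 or at the background of 1.43 fragments. The solution was unique for 99.7% or more of the peaks in each list and for all member peaks. The solving of the fragments and the overlap of peaks with promoters were tested on simulated data, and the other steps were not. The depth over the input was 2.24, 3.85 and 5.15, and the median summit had 6, 10 and 12 fragments, so that a single promoter has a wide interval.

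Protein-coding TSSs were from GENCODE vM21 on GRCm38, and all peaks ended within its chromosomes. A promoter peak overlapped 500 nt on either side of a TSS by at least 1 bp. The highest fold per gene was ranked over 21835 genes. Promoter sequences were from RefSeq. Members and lists were chosen with earlier results of these data known. The solution steps, the printed sequences and the use of the peak with the highest pileup were chosen after seeing the values. All 10 members were named, and 2 podocyte markers are not reported here. Of the wider lists, the genes with the 2 largest rises and falls per step and the 2 nearest to *Nox4* and *Hmox1* were named. Alternatives were the highest −log10 p, summits within 500 nt, promoters of 1000 nt, a −log10 p of at least 1 or −log10 q of at least 2, ranking by pileup, fold over the chromosome's median and the solution with the most fragments. Software was matplotlib 3.10.9, scipy 1.17.1, pandas 2.3.3 and numpy 2.4.6 under Python 3.11.15.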

Additional observations from a re-analysis of the deposited data

How the results depend on the processing

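The directions of *Cat*, *Nqo1* and *Nfe2l2* in both steps, and of *Ncf1* and *Nox4* from NG to HG+NT, were the same under each setting that gave them a value. The count of members with intervals apart went from 2 to 1 with the highest −log10 p, with summits within 500 nt of a TSS, with a −log10 p of at least 1 and with the peak of highest pileup. With summits within 500 nt, 7 members had a value, 1 was lower with miR-93 than in HG+NT and the median change from NG to HG+NT was -28.6 points. With a −log10 p of at least 1, 5 members had a value and 0 were lower with miR-93 than in HG+NT. HG+NT was the lowest list at 3 of the 5, against 31.4% of the 8513 genes left. The median changes of these 5 members were -31.0 and 20.1 points. Ranked by pileup, the falls of *Nqo1* and *Sod2* and the rises of *Ncf1* and *Cat* were short of 25 points. In this ranking *Nox4* had a fall from NG to HG+NT, with a change of -47.6 points. HG+NT was the highest list at 2 members, and 4 members were higher in HG+NT than in NG. The median changes were -5.05 and 5.26 points. With the peak of highest pileup, a setting chosen after seeing the data, 4 were higher and the median changes were -5.80 and 3.37. In these 2 settings *Sod2* went from a fall to 1.36 and 1.57 points in the first step, and *Cyba* to 12.9 and 13.8 in the second. The change of *Sod2* from HG+NT to miR-93, 22.4 points by fold, was -64.3 with the same peaks ranked by pileup, since the fold peak lies upstream. Of the changes short of 25 points, those of *Sod1*, *Keap1*, *Hmox1* and *Cyba* from NG to HG+NT and of *Nox4* and *Ncf1* in the second step also changed sign under at least 1 setting. The cause of the other differences between settings was not tested. A −log10 q of at least 2 left no member, and it left only 2 of the 21835 genes, so it says nothing about the members. The solution with the most fragments left the values of the members as they were. No paired analysis was possible because each condition has only 1 list, and no replicate could be left out for the same reason. With 8 to 62 fragments at a summit, differences within the intervals were not detectable at this depth.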
